A study of Saccharomyces cerevisiae with 12 samples.

Results

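The CLB2 cluster is a set of budding yeast genes transcribed together from late S phase to mitosis. The transcription factors Mcm1 and Fkh2 with the coactivator Ndd1 drive the set, whose products carry cells into and through mitosis. They include mitotic cyclins, the polo kinase, an activator of the anaphase-promoting complex and proteins of the spindle and the bud neck. Described here are 9 listed genes of the cluster, CLB1, CLB2, CDC5, CDC20, SWI5, BUD4, ASE1, HST3 and KIN3, out of 6002 nuclear coding genes. They were chosen by name from a RefSeq gene table of the R64 assembly, and all 9 were found there. The values are the positions of Scc2 peaks over each coding span (start to stop codon) and, separately, over the 1000 bp upstream of the start codon.

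Scc2, with its partner Scc4, loads cohesin, the ring that holds sister chromatids together, onto chromosomes. Its sites were mapped in MATa cells of the W303 strain by chromatin immunoprecipitation (ChIP) followed by sequencing. The cells carried SCC2-13MYC::NAT for the immunoprecipitation, the degron allele MED14-AID*-6FLAG::HYG, and OsTIR1 under the ADH1 promoter at ura3-1. Med14 is the scaffold of Mediator, the coactivator that connects transcription factors with RNA polymerase II. Its degron marks it for destruction once auxin joins it to the plant protein OsTIR1. The Western blots of Med14 that the labels mention were not analysed here. Of the 12 samples, 3 are Myc immunoprecipitates of cultures treated with 1 mM auxin and 3 are Myc immunoprecipitates of cultures whose labels give no treatment. The other 6 are total chromatin, 3 for each condition, without a peak list of their own. All cultures carried the same genotype, were arrested in alpha-factor and had an extra 1.5 hours in it. They were then released into nocodazole, which blocks cells in mitosis, for 2 hours. All were fixed in 1% formaldehyde for 30 minutes. The protocol text in the labels names auxin for every sample, so the groups rest on the titles and treatment labels. All cultures carry the degron, OsTIR1 and the tag, and the effect of auxin and the effect of Med14 loss cannot be told apart. Neither transcription nor the mitotic arrest was measured here, and a change in the share of arrested cells cannot be told apart from a change of Scc2 within each cell.

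The lists held 964, 1324 and 1569 peaks with auxin and 2115, 2111 and 1502 peaks without auxin. The median fold enrichment given by the authors' peak caller was 3.93, 2.83 and 2.57 with auxin and 1.70, 1.67 and 2.54 without auxin. The no-auxin list of replicate 3 therefore stood apart from the other 2 of its group, and was closest in length and in fold to the auxin list of replicate 3. Sequencing depth is unknown, a peak list does not give the amount of Scc2, and the absence of a call does not show that Scc2 was absent.

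Scc2 peaks lay over the coding spans of 7 of the 9 genes without auxin, counting a peak in any culture, and over that of CDC5 alone with auxin. Over all 6 lists together, 7 of the 9 genes and 33.1% of all coding genes had a coding-span peak. For all coding genes this share was not counted in each group alone. With auxin, 0, 0 and 1 of the 9 coding spans held a peak. The share among all 6002 nuclear coding genes was 7.93%, 12.4% and 15.2% in the same 3 lists. Without auxin, 6, 7 and 2 of the 9 held one, against 24.9%, 25.0% and 17.0% of all coding genes. Each auxin list thus had fewer genes of the cluster with a peak than each list without auxin, and the same order held for the shares of all coding genes. The mean difference, auxin minus no auxin, was -4.67 genes. It was -4.17, -3.67 and -6.17 genes when the no-auxin list of replicate 1, 2 or 3, respectively, was left out. In the replicate 3 lists alone, which are alike in length, the counts were 1 gene with auxin and 2 without auxin.

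**Figure D1:**
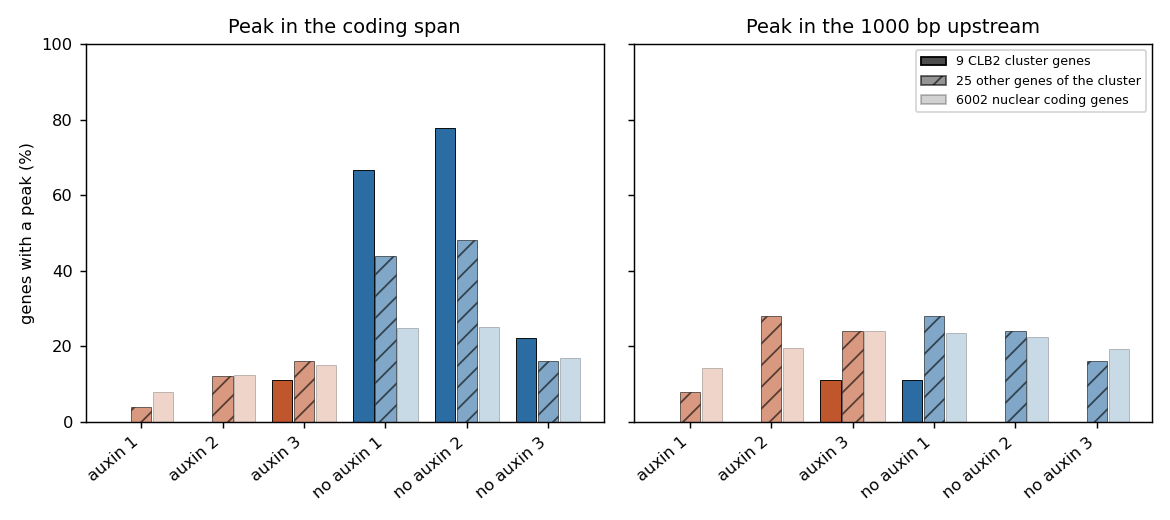
Share of genes, in percent, with a Scc2 peak in the coding span (left) and in the 1000 bp upstream (right) in each list, auxin in orange and no auxin in blue. Solid bars are the 9 CLB2 cluster genes, hatched bars 25 other genes of the cluster and pale bars all 6002 nuclear coding genes. The coding spans of the 9 genes are at 66.7% and 77.8% in the no-auxin lists of replicates 1 and 2 and at 22.2% in that of replicate 3, against 0%, 0% and 11.1% with auxin.

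Coverage of the 9 coding spans was also lower with auxin. The genes are 1308 to 4344 bp long. Of the 2550 coding genes within that range, 6.67%, 11.2% and 13.6% held a coding-span peak with auxin, and 24.7%, 26.2% and 15.3% without auxin. Peaks covered on average 1.30 ± 2.25% of the coding spans of the 9 genes with auxin and 16.6 ± 11.3% without auxin (SD, n = 3 lists each). For the genes of like length the coverage was 3.67 ± 1.18% with auxin and 9.71 ± 2.29% without auxin. By list, the 9 genes were covered to 0%, 0% and 3.90% with auxin and to 12.2%, 29.4% and 8.15% without auxin. The difference in mean coverage of -15.3 percentage points became -8.87 without the no-auxin list of replicate 2, which had the highest coverage.

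The mitotic cyclin genes CLB1 and CLB2, which encode the main activators of the Cdc28 kinase in mitosis, had no peak in any list. CLB1 lies on chromosome VII (703636 to 705051, plus strand) and CLB2 on chromosome XVI (771653 to 773128, plus strand). Neither the coding span, nor the 1000 bp upstream, nor the 500 bp downstream of either gene was touched by a peak. The nearest peaks were found in all 6 lists and lay 1838 bp from CLB1 (706889 to 707717) and 2156 bp from CLB2 (769075 to 769497). The nearest tRNA genes lay 2057 bp from CLB1 and 2351 bp from CLB2, and their near ends fell within these regions. CLB6 and CLB5, the S phase cyclin genes next to CLB1 and CLB2, also had no coding-span peak in any list. Their upstream windows were partly covered in each list, and that of CLB6 overlaps the region nearest to CLB1. The CLB6 window was covered to 50.8%, 56.3% and 53.5% with auxin and 61.3%, 54.8% and 53.1% without auxin. That of CLB5 was covered to 42.6%, 53.6% and 48.1% with auxin and 34.9%, 33.7% and 30.6% without auxin.

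CDC5, the gene of the polo kinase that drives mitotic entry and exit, had the highest coverage of the 9 genes and was the only one with a peak in any auxin list. It lies on chromosome XIII (269019 to 271136, minus strand). Peaks covered 0%, 0% and 35.1% of its coding span with auxin and 49.6%, 67.0% and 52.7% without auxin. The groups did not overlap, and the auxin list with a peak was again that of replicate 3. The means were 11.7 ± 20.3% with auxin and 56.5 ± 9.29% without auxin (SD, n = 3 each; exact two-sided permutation p = 0.1, adjusted 0.862 over all coding genes). With 3 lists against 3, a p of 0.1 is the smallest that the 20 assignments allow, so the per-gene test cannot reach 0.05. Of all coding genes, 9.98% had coverage below that of every no-auxin list in all 3 auxin lists, and 2 of the 9 genes did, CDC5 and HST3.

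The CDC5 peaks lay toward the end of the gene, away from its promoter. The summits without auxin were 1580 bp and 1554 bp from the start codon in replicates 1 and 2, and 1921 bp and 729 bp from it in replicate 3, which had 2 peaks. With auxin, the summit of replicate 3 was at 1484 bp (269652). These are 70.1% of the way along the span with auxin and 74.6%, 73.4%, 90.7% and 34.4% without auxin. The peak with auxin was 743 bp wide (269081 to 269823). Its rank by −log10 p was 1300 of 1569 peaks. Without auxin the peak nearest the stop codon ranked 932 of 2115, 697 of 2111 and 1003 of 1502. Ranks place a peak within its own list and show no change between lists of different length.

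Downstream of CDC5 a broad peak was present in all 6 lists, ending 134 bp or more from the stop codon. It spanned 266301 to 268885 over all lists together, reached YPT7, the gene of a vacuolar Rab GTPase, and is known as the place of that chromosome's centromere. It covered 53.0%, 68.8% and 68.6% of the 500 bp downstream of CDC5 with auxin and 71.8%, 66.8% and 73.4% without auxin. The groups overlapped there (exact permutation p = 0.3, adjusted 1). Its ranks were 53 of 964, 34 of 1324 and 26 of 1569 with auxin and 4 of 2115, 18 of 2111 and 3 of 1502 without auxin. This neighbour thus ranked high in all 6 lists, and its part in the CDC5 coding-span peaks, which 4 of the lists had, was not tested.

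**Figure D2:**
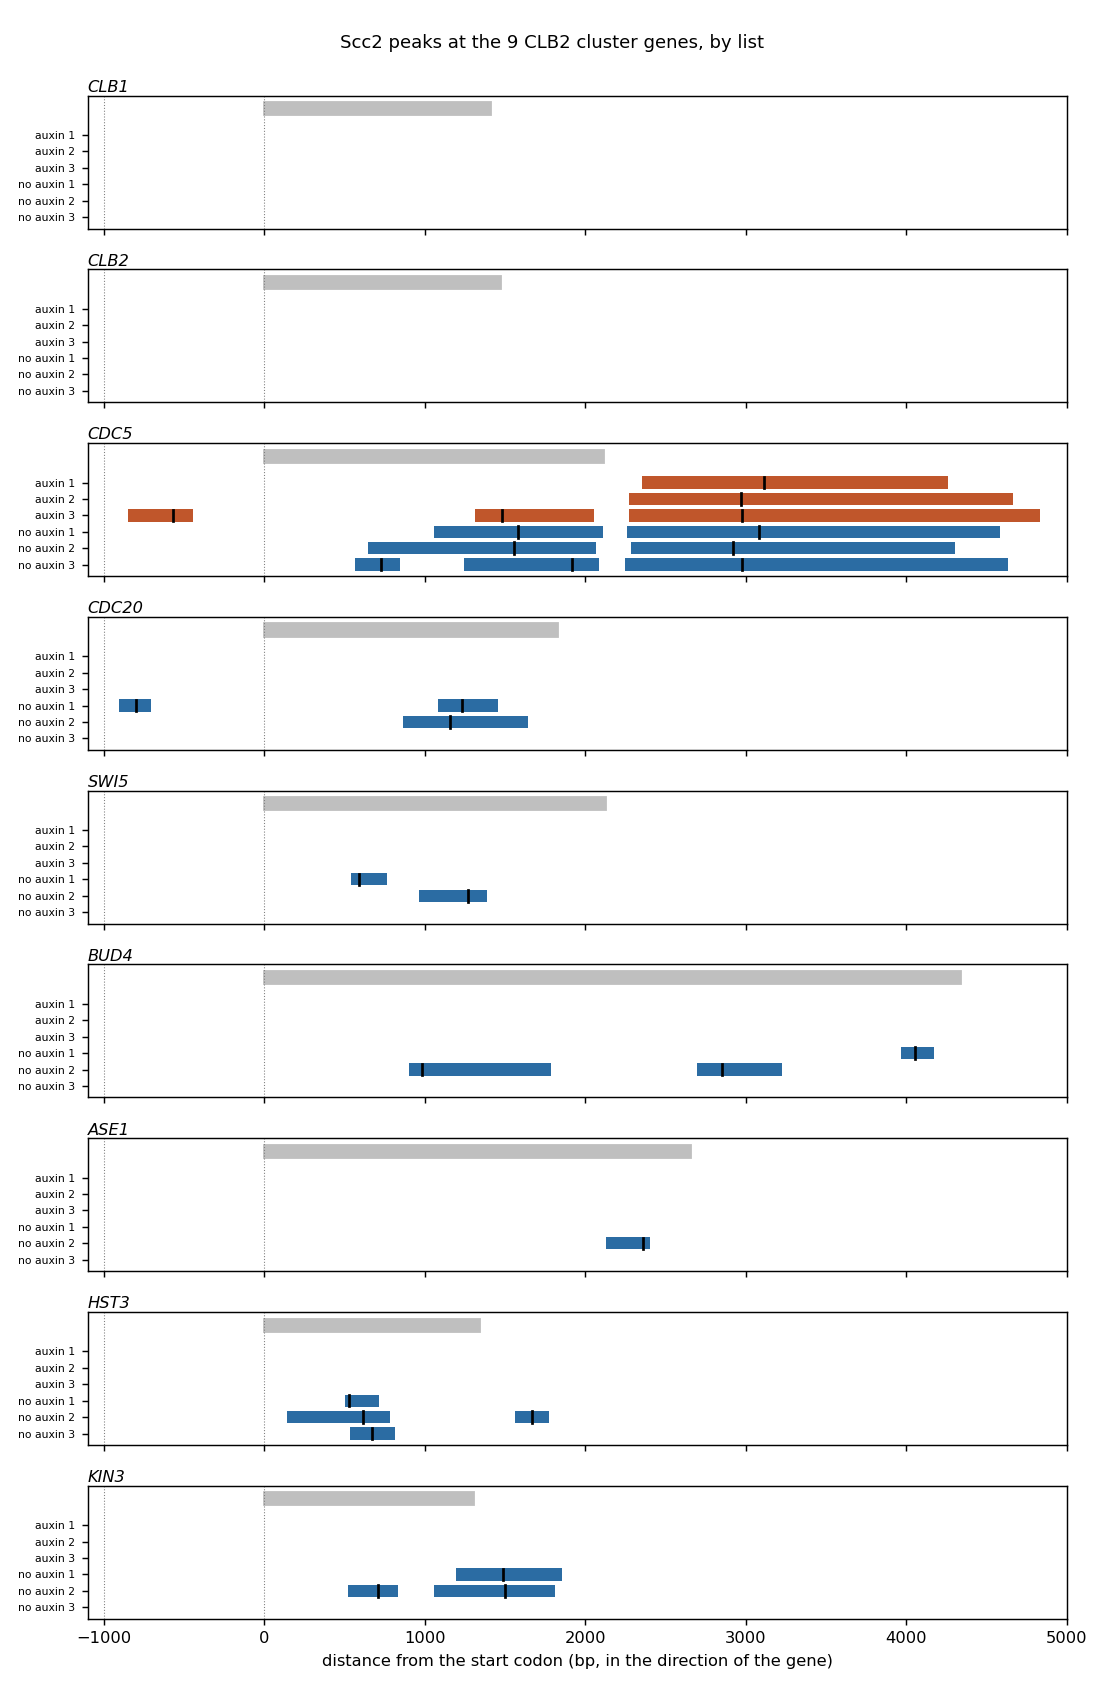
Peaks (bars) with their summits (black ticks) at each of the 9 genes, by list, with auxin in orange above no auxin in blue. The x axis is the distance from the start codon in bp, the grey bar is the coding span, and only peaks that touch the span, the 1000 bp upstream or the 500 bp downstream are drawn. CLB1 and CLB2 have no peak, and with auxin only CDC5 has any.

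KIN3, a NIMA-related kinase gene on chromosome I (170396 to 171703, minus strand), had a peak in 2 lists without auxin. Its coding span was covered to 0% in each auxin list and to 8.41%, 43.5% and 0% without auxin (exact permutation p = 0.4, adjusted 1). In both of those lists a peak crossed the stop codon into ADE1, a convergent adenine biosynthesis gene 100 bp away. That peak had its summit inside ADE1, at 170212 and 170201, and covered the whole 500 bp downstream of KIN3. A second peak in replicate 2 had its summit inside KIN3, 709 bp from the start codon. In replicate 1, then, the call at KIN3 rested on 110 bp of a peak centred on its neighbour.

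CDC20, whose product activates the anaphase-promoting complex, lies on chromosome VII (289809 to 291641, plus strand). Its coding span was covered to 0% in each auxin list and to 20.3%, 42.7% and 0% without auxin (exact permutation p = 0.4, adjusted 1). The summits of replicates 1 and 2 lay 1231 bp and 1157 bp from the start codon, 74 bp apart, at 67.2% and 63.1% of the span. The same part of the gene thus carried the peak in both cultures, and the third list without auxin had none. In replicate 1 a further peak had its summit at -800 bp from the start codon, inside ARO5, the neighbouring gene.

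SWI5 encodes the transcription factor that is held in the cytoplasm until mitotic exit and then activates genes of early G1 phase. It lies on chromosome IV (748613 to 750742, minus strand). Peaks covered 0% of it in each auxin list and 10.6%, 20.0% and 0% without auxin (exact permutation p = 0.4, adjusted 1). The summits of replicates 1 and 2 were 594 bp and 1270 bp from the start codon, and the peaks themselves, at 541 to 766 bp and 962 to 1388 bp, did not overlap. The peak of replicate 1 ranked 2045 of 2115, near the end of its list.

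Both genes of structural proteins had peaks in lists without auxin alone. BUD4, for an anillin-like protein of the bud neck, lies on chromosome X (598735 to 603078, plus strand) and is the longest of the 9 genes. It was covered to 0% in each auxin list and to 4.83%, 32.6% and 0% without auxin (exact permutation p = 0.4, adjusted 1). Its peaks also lay apart, with a summit 4058 bp from the start codon in replicate 1 and summits at 984 bp and 2855 bp in replicate 2. ASE1, for the protein that bundles microtubules of the spindle midzone, lies on chromosome XV (433688 to 436345, minus strand). It had a single peak, in the no-auxin list of replicate 2, which covered 10.3% of the span and ranked 1961 of 2111 (exact permutation p = 1).

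HST3, for a sirtuin that removes acetyl groups from histone H3 after S phase, was the other gene with a peak in every list without auxin. It lies on chromosome XV (378219 to 379562, plus strand). Coverage of its coding span was 0% in each auxin list and 15.9%, 48.0% and 20.6% without auxin, and the groups did not overlap. The mean without auxin was 28.2 ± 17.3% (SD, n = 3), and the difference of -28.2 percentage points had an exact two-sided permutation p of 0.1 (adjusted 0.862). The 3 summits lay within 145 bp of one another, at 530 bp, 613 bp and 675 bp from the start codon, or 39.4%, 45.6% and 50.2% of the span. Unlike at CDC5, no region with a peak in all 6 lists lay close to HST3. The nearest such region was 23911 bp away and the nearest tRNA gene 24106 bp away. In replicate 2 another peak lay downstream of HST3, with its summit in BUB3, a spindle checkpoint gene.

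**Figure D3:**
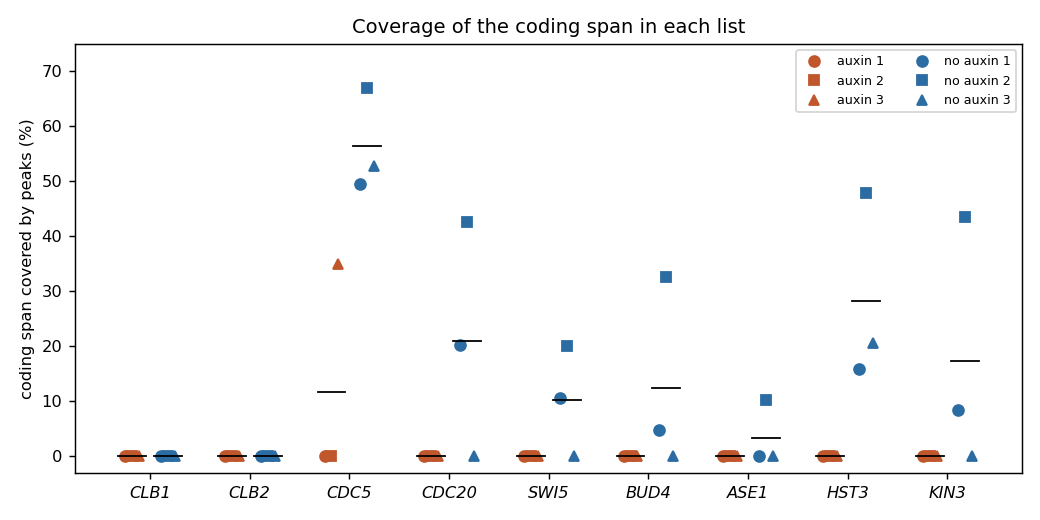
Percent of each coding span covered by peaks in each list, with auxin (orange, left of each pair) and without (blue, right); symbols mark the replicate and lines the mean of 3 lists. CDC5 and HST3 are the genes whose auxin lists all lie below their no-auxin lists, and the highest value of every gene with a peak is that of the no-auxin list of replicate 2.

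Over the 9 genes, 6 had a coding-span peak in 2 or 3 of the no-auxin lists, against 22.4% of all coding genes, and 5 of these had none in any auxin list. That pattern held for 11.1% of all coding genes and 11.6% of those of like length. The count does not require peaks at the same place. Among the 5, the peaks of SWI5 and of BUD4 did not overlap between replicates 1 and 2. KIN3 counted in replicate 1 through a peak with its summit in ADE1. With the summit required inside the span the count was 4, and the share of all coding genes under that rule was not counted. Among genes with a coding-span peak in 2 or 3 no-auxin lists, 5 of 6 of these genes (83.3%), 7 of the 10 such genes among 25 others of the cluster (70%) and 667 of 1346 coding genes (49.6%) lacked one in all auxin lists. Coverage and rank of the peaks without auxin were not matched between these sets, and the difference was not tested. The count of 5 was 1, HST3 alone, without the no-auxin list of replicate 1 or without that of replicate 2, since a peak was then needed in both remaining lists.

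No peak of any list lay close to a start codon of the 9 genes. Measured from the start codon, the nearest edges were at -444 bp, at CDC5 with auxin, and at 142 bp, at HST3 without auxin. Genes of the M/G1 boundary also lacked peaks there, and G1/S genes did not. A window from 400 bp before to 100 bp after the start codon was set by these edges. In it, 0 of 15 M/G1 genes, 3 of the 25 other genes of the cluster and 10 of 20 G1/S genes had a peak in any list. The share with a peak in any list was 25.2% for all coding genes and 19.9% for those of like length. By list, the G1/S share was 25%, 40% and 45% with auxin and 10%, 10% and 5% without auxin. That of all coding genes was 10.5%, 14.4% and 18.7% with auxin and 15.1%, 14.1% and 13.1% without auxin. The G1/S share was thus the higher one in the auxin lists only. Peaks were rare at the M/G1 genes in general: of the 15, 14 had no coding-span peak and 15 no upstream peak in any list. The window was placed around the gap at the 9 genes, so their own count in it is no result. In the whole 1000 bp upstream, 0, 0 and 1 of the 9 genes had a peak with auxin and 1, 0 and 0 without auxin. The share of all coding genes was 14.3%, 19.5% and 24.0% with auxin and 23.4%, 22.5% and 19.3% without auxin. The gene with auxin was CDC5, with a peak between YMR001C-A and MIX17 (271580 to 271984), 40.5% of the window and rank 1456 of 1569. The gene without auxin was CDC20, with the peak in ARO5 described above (288902 to 289101), 20.0% of the window and rank 1852 of 2115. For both the exact permutation p was 1.

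Of the 18 coding-span peaks without auxin, 16 had their summit inside the span, at 22.7% to 93.4% of the way from start to stop codon, with a median of 61.4%. With auxin the single peak had its summit at 70.1%. With each span cut into 10 equal parts, no base of the first part was covered in any list at any of the 9 genes. Coverage of that part was also low in genes of like length. It was 2.38%, 3.19% and 4.58% with auxin and 5.62%, 5.02% and 4.51% without auxin. The mean share of covered bases without auxin was 5.84 ± 5.97% in the first of 3 equal parts of the span, 23.6 ± 18.5% in the middle part and 20.2 ± 9.90% in the last (SD, n = 3). In genes of like length it was 7.62 ± 1.33%, 9.71 ± 2.27% and 11.8 ± 3.33%. With auxin the 3 parts of the 9 genes had 0%, 0.519 ± 0.900% and 3.38 ± 5.85% (SD, n = 3).

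**Figure D4:**
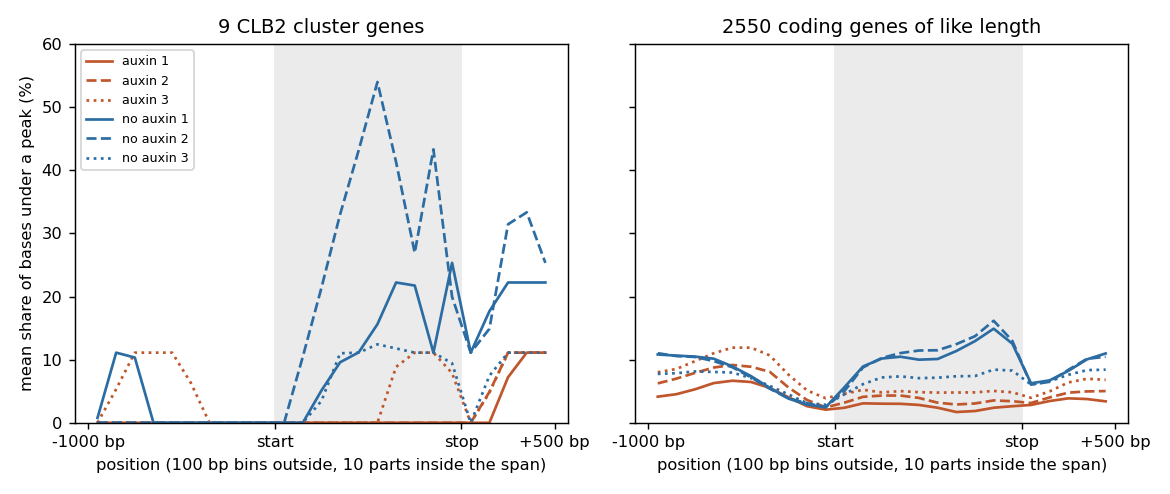
Mean share of bases under a peak, in percent, along the 9 CLB2 cluster genes (left) and the 2550 coding genes of like length (right), in 100 bp bins outside and 10 equal parts inside the coding span (grey), one line per list. The 9 genes have no covered base in the 400 bp before the start codon in any list, and the no-auxin list of replicate 2 is highest in the middle of the span.

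Most peaks over these genes were weak ones for their list. Of the 18 coding-span peaks without auxin, 15 ranked below the middle of their list by −log10 p, and for 10 of them over 75% of the list ranked above. The median over the 18 peaks was 76.0% of the list ranked above. Ranks of coding-span peaks at other genes were not counted, so low ranks are not shown to be particular to these genes. The authors' fold of these peaks was 1.41 to 2.19, and that of the single peak with auxin was 2.00. Those above the middle of their list were at CDC5 in replicates 1 and 2 and at HST3 in replicate 2. When every list was limited to its 964 highest-ranked peaks, CDC5 in the no-auxin lists of replicates 1 and 2 was the only gene left, so that the counts were 0, 0 and 0 with auxin and 1, 1 and 0 without auxin. The share of all coding genes was then 7.93%, 8.80% and 9.41% with auxin and 11.7%, 12.0% and 11.0% without auxin.

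**Figure D5:**
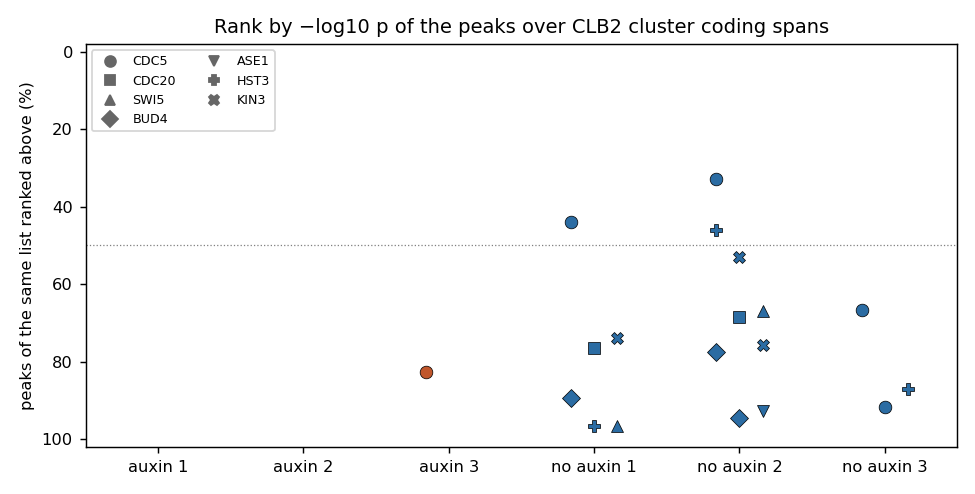
Rank of each peak over a CLB2 cluster coding span, as the percent of peaks of the same list with a higher −log10 p (0 at the top is the strongest), by list and gene. The dotted line is the middle of the list; 3 peaks lie above it, 2 of CDC5 and 1 of HST3, all without auxin.

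The 25 other listed genes of the cluster also had more coding-span peaks in 2 of the no-auxin lists, at 1, 3 and 4 genes with auxin and 11, 12 and 4 genes without auxin, with the same values in the replicate 3 lists. Of the 10 found in 2 or 3 of the no-auxin lists, 2 had one in at least 2 auxin lists. The difference in coverage, auxin minus no auxin, had a median of -12.5 percentage points over the 9 genes and of 0 over these 25 genes and over all coding genes, of which 12 and 4014 had no coding-span peak in any list. The mean coverage of the 25 genes was 2.97 ± 2.09% with auxin and 15.0 ± 5.81% without auxin (SD, n = 3 lists each). That of the 9 genes was 1.30 ± 2.25% with auxin and 16.6 ± 11.3% without auxin, as above, and that of all coding genes was 5.64 ± 1.78% with auxin and 12.1 ± 2.11% without auxin. The highest medians without auxin were at PMP1, TPO3, NCE102 and CHS2. CHS2, the chitin synthase of the primary septum, was covered to 0% in each auxin list and to 40.7%, 48.6% and 0% without auxin. TPO3, a polyamine exporter gene, had 0%, 0% and 15.5% with auxin and 87.1%, 88.4% and 0% without auxin. NCE102, for a membrane protein of eisosomes, had 0%, 65.1% and 84.9% with auxin and 85.6%, 82.6% and 82.4% without auxin. PMP1, a very short gene for a subunit of the plasma membrane proton pump, had 0% in each auxin list and 100%, 43.1% and 99.2% without auxin.

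NUM1, for a cortical anchor of dynein, also had a coding-span peak in at least 2 auxin lists. It was covered to 15.0%, 15.3% and 7.20% with auxin and 15.6%, 15.8% and 15.4% without auxin, and its internal repeats make the placement of reads there uncertain.

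Among the regulators of the cluster, FKH1, FKH2 and NDD1 had no coding-span or upstream peak in any list, and MCM1 had peaks in all 6 at different places. The MCM1 coding span (chromosome XIII, 353871 to 354731) was covered to 0% in each auxin list and to 71.4%, 68.3% and 38.0% without auxin (exact permutation p = 0.1, adjusted 0.862). Its 1000 bp upstream was covered to 35.9%, 49.9% and 61.7% with auxin and to 0% in each list without auxin (exact permutation p = 0.1, adjusted 0.904). Such a pattern, a coding-span peak in 2 or 3 no-auxin lists and no auxin list, together with an upstream peak in 2 or 3 auxin lists and no list lacking auxin, was found at 51 of the 6002 coding genes, or 0.850%. None of the 9 genes showed it, and RAX2 was the gene among the 25 others that did.

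Genes of other phases of the cell cycle were counted in the same way, and differences between the sets were not tested. Of 20 G1/S genes, 0, 1 and 4 had a coding-span peak with auxin and 4, 5 and 3 without auxin. These are 0%, 5% and 20%, and 20%, 25% and 15%. Of all coding genes the shares were 7.93%, 12.4% and 15.2%, and 24.9%, 25.0% and 17.0%. Upstream, 7, 9 and 11 had a peak with auxin and 8, 5 and 5 without auxin. These are 35%, 45% and 55%, and 40%, 25% and 25%. Of all coding genes the upstream shares were 14.3%, 19.5% and 24.0%, and 23.4%, 22.5% and 19.3%. Of 15 genes expressed at the M/G1 boundary, among them targets of Swi5, 0, 0 and 1 had a coding-span peak with auxin and 1 in each list without auxin, and none had an upstream peak in any list. PIR3, a cell wall gene, was the one with peaks.

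The coding genes whose coverage over the 6 lists was most like that of CDC5 were RPL13A, UTP23, ODC2, PEX31 and ANP1. The mean absolute difference from CDC5 over the lists was 3.45 percentage points for RPL13A, 5.48 for UTP23, 5.67 for ODC2, 6.39 for PEX31 and 7.02 for ANP1. All of them had a coding-span peak in every list without auxin and in the auxin list of replicate 3, and ANP1 also had one in the auxin list of replicate 2. RPL13A has a near-identical copy with which the aligner can exchange reads, so its coverage is uncertain. At the tagged loci, SCC2 had no peak, and MED14, listed as RGR1, had coverage of 0%, 3.85% and 4.16% with auxin and 2.74%, 0% and 0% without auxin.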

How the data were processed

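Peak lists of 6 Myc immunoprecipitates, 1 for each culture, were analysed. Per the submitters' processing notes, Bowtie2 2.4.2 and MACS2 2.1.1.20160309 were used on sacCer3; which step each served, the calling threshold and any control are not stated in the sources used here. The authors deposited for each peak a fold enrichment (a ratio), −log10 p and −log10 q, and a score that was not used. The smallest −log10 q was 2.31 to 2.76. These values describe and rank peaks within a list. Fission yeast calibration enters no value.

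Genes came from RefSeq R64, the sequence of sacCer3, with strand read from systematic names. A gene had a peak where 1 bp or more of a window was covered. Covered percent per gene was compared by an exact two-sided permutation test of means, with Benjamini-Hochberg adjustment over 6002 genes. Python 3.11.15 was used, and coverage and test were checked on simulated lists.

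Replicate numbers were taken from titles, and the labels describe a culture for each. The members and lists were chosen with earlier results of these data known. All 9 members were named, as were up to 4 other cluster genes with the highest median coverage, any of these with peaks in 2 auxin lists, neighbours under a member's peak, the 5 genes most like the best covered member, and MED14 and SCC2. An item that this rule names is not reported here. The downstream window, the start codon window, YPT7, YMR001C-A, MIX17, BUB3, CLB5, CLB6, MCM1, RAX2 and PIR3 were added after values were seen. Promoter sequences and motifs were not analysed here.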

Additional observations from a re-analysis of the deposited data

How the results depend on the processing

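The difference in genes with a coding-span peak, -4.67, kept its direction under all 12 alternatives tried for it. Among the 12, taking replicate number as a block could not change this difference. The difference was -1 with peaks of −log10 q of at least 10 and -0.667 with 964 peaks in every list. It was -1 in the replicate 3 lists alone, an alternative chosen after seeing the data. The mean coding-span coverage difference, -15.3 points, was -6.10, -4.32 and -4.25 under the same settings. The count of 5 genes with a peak in at least 2 no-auxin lists and no auxin list was 1 with −log10 q of at least 10 and 1 with lists of equal length. In both settings that gene was CDC5, which is not among the 5, since its weaker peak in an auxin list was then dropped. None of the 5 kept the pattern in these settings. Leaving out each list in turn gave -3.67 to -6.17 genes, -8.87 to -19.5 points and counts of 1 to 6. Upstream, the difference was 0 genes and 0.759 points, with -0.333 to 0.333 genes and -0.741 to 1.51 points as lists were left out, and 1 gene and 4.5 points in the replicate 3 lists alone.

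Same-numbered lists deviated together in no pair (correlations -0.0975, 0.00650 and -0.0313), so the numbers were not taken as pairs. With replicate number as a block the differences were -4.67 and 0 genes and -15.3 and 0.759 points, and the smallest sign-flip p that 3 pairs allow is 0.25. Of 101 values for single genes under the alternatives, 82 kept their direction or stayed at 0, 19 fell to a difference of 0 and 0 reversed. The 82 include 9 values each for CLB1 and CLB2, which had no peak in any list. They also include the values with replicate number as a block, which leaves every difference unchanged. Such values could not move, so the 82 overstate how stable the differences were. Depth is unknown, and 15 of 18 peaks behind these counts ranked below the middle of their lists.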

Other observations

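PMP1, NCE102 and TPO3, genes of the cluster outside the 9, also had upstream peaks in auxin lists. The 1000 bp upstream of PMP1 was covered to 23.3%, 27.8% and 39.7% with auxin and 1.2%, 0% and 0% without auxin. That of NCE102 was covered to 74.1%, 71.4% and 79.9% with auxin and 0%, 0% and 22.6% without auxin, and that of TPO3 to 0%, 38.3% and 47.5% with auxin and 0% in each list without auxin. The exact two-sided permutation p was 0.1 for PMP1 and NCE102 (adjusted 0.904 over all coding genes) and 0.4 for TPO3. These genes were chosen after their upstream values were seen. Of the 25 other cluster genes, 2, 7 and 6 had an upstream peak with auxin and 7, 6 and 4 without auxin. An upstream peak in at least 2 auxin lists and no list without auxin was found at 2 of the 25. The reverse, in at least 2 no-auxin lists and no auxin list, was found at 3. Of all 6002 coding genes, 254 and 411 had these patterns.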
